A study of Mus musculus with 6 samples.

Results

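The integrin subunits described here are 10 genes chosen by symbol out of 24394 gene symbols in the files: the fibronectin-binding subunits Itga4, Itga5, Itgav and Itgb1, the leukocyte subunits Itgal, Itgam, Itgax and Itgb2, the vitronectin receptor subunit Itgb5, which pairs with Itgav, and the laminin receptor subunit Itga6. All 10 passed the filter on low values.

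Integrins are cell surface receptors made of 1 alpha and 1 beta subunit, which join the extracellular matrix or a counter-receptor on another cell to the actin cytoskeleton. Macrophages carry the leukocyte integrins, in which the common beta subunit Itgb2 pairs with Itgal, Itgam or Itgax and binds intercellular adhesion molecules, fibrinogen or complement-coated particles. They also carry receptors for fibronectin, a matrix protein whose fragments accumulate in worn cartilage, built from Itga4 or Itga5 with Itgb1 or from Itgav with several beta subunits.

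The RNA-seq libraries came from bone marrow-derived macrophages (BMMs) of wild-type C57BL/6 mice at postnatal day 28, grown for 7 days in 50 ng/ml of macrophage colony-stimulating factor. In 3 cultures, 5 cartilage fragments were added per macrophage for 24 h, and 3 control cultures received none. The fragments were crushed femoral head cartilage of mice from which the marrow was also taken. No source states whether the cultures of a group came from separate mice, so p-values measure the spread between these cultures, which may be technical. The Methods give male mice, whereas Xist lay between 19.8 and 23.6 FPKM in the 6 libraries and the 4 Y-linked genes examined were listed at 0 in each. Depth, estimated from coverage, was 743000 to 776000 fragments per control library and 699000 to 754000 per stimulated library, and the members held between 59 and 1662 fragments in a library. These numbers are far below the reads per sample given in the Methods, the reason could not be settled from the files, and every value on the scale of scaled fragments rests on them.

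The unit is FPKM, in which fragments are adjusted for transcript length and library depth, summed over the transcripts of a gene, so levels can be compared between genes. Cufflinks listed reference transcripts and also transcripts that it assembled in 1 library without a gene symbol. An assembled transcript was counted with the gene whose locus it shared. Values for reference transcripts only are given beside the members that this changed. In GENCODE vM21, Itgam overlaps Gm49368 on the same strand, and Itga5 overlaps Mir6963. On the opposite strand, Itga4 overlaps Cerkl, and Itgav overlaps Gm13684 and the processed pseudogene Dnmt3l-ps1. Although the libraries were made with a stranded kit, no source states whether the counting used strand. Reads shared with these genes therefore cannot be told apart. The second scale, scaled fragments, is the estimated fragment number of a gene relative to that of the library.

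The macrophage label held, with all 6 macrophage markers present and summed at 29000 to 38800 FPKM in controls and 29500 to 39800 FPKM in stimulated cultures. Most of this sum was Lyz2, at 26800 to 37400 FPKM over the libraries. Cd68 was at 1090 to 1280 FPKM, Csf1r at 565 to 670 FPKM, Mertk at 71.0 to 110.0 FPKM and Fcgr1 at 5.13 to 12.7 FPKM. Adgre1, which encodes the macrophage antigen F4/80, rose from between 350 and 373 FPKM to between 524 and 566 FPKM (log2 fold change 0.59 ± 0.061, SE, limma adjusted p = 0.0092). With reference transcripts only its log2 fold change was 0.506 ± 0.161, which did not pass (limma adjusted p = 0.62). The 9 chondrocyte markers summed to 1.54 to 4.22 FPKM in controls and 1.18 to 2.82 FPKM in stimulated cultures, and Matn1, Matn3, Col9a1 and Hapln1 were listed at 0 throughout. All 4 T cell markers were at 0 in every library, 3 of 4 B cell markers were at 0, and 5 dendritic cell markers summed to at most 2.19 FPKM. Neutrophil markers, summed over the 6 of 7 in the files, ranged from 783 to 914 FPKM in controls and from 731 to 1070 FPKM in stimulated cultures. Over the libraries S100a9 was at 329 to 502 FPKM, S100a8 at 250 to 454 FPKM, Ngp at 47.9 to 84.8 FPKM and Camp at 3.3 to 33.2 FPKM. Mpo and Elane were at most 1.88 FPKM. Whether cells with these markers have a part in the values of the leukocyte subunits was not tested. Platelet and endothelial markers summed to at most 2.59 and 2.76 FPKM. The 5 fibroblast markers summed to 155 to 169 FPKM in controls and 103 to 119 FPKM in stimulated cultures, and their part in the results below was not tested. In such bulk cultures, fewer cells of a type and less RNA per cell cannot be told apart.

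Several members occur as splice forms that differ in the part of the receptor they encode, and the data below are divided between these forms. The reference sequence around each difference is shown in transcript orientation, read from GENCODE vM21 transcripts (GRCm38, the build of the files) on the plus strand, with the bases present in only 1 form in capitals.
Itgam, chr7:128101634-128101636, first bases of exon 14 of 30: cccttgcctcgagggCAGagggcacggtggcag
Itgal, chr7:127317364-127317366, last bases of exon 18 of 31: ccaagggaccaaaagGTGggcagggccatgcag
Itga6, chr2:71853534-71853663, exon 25 of 26, with the coding bases of the exon shown: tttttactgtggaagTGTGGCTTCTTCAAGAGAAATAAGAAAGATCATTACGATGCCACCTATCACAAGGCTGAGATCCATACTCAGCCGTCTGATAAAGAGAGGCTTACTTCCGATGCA
Itgb5, chr16:33947853-33947881, last bases of exon 14 of 15: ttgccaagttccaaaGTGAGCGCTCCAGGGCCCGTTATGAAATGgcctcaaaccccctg
The 2 Itgam forms, and the Itgal forms NM_001253872 and NM_001253873, differ by 3 coding bases, which keep the reading frame. Itgal has 4 reference transcripts, of 5225, 5222, 5222 and 5219 bases, so the site shown is not the only difference among them. In Itga6 the 130-base exon changes the cytoplasmic tail, and in Itgb5 the 29 bases change the frame near the C-terminus.

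In control macrophages the leukocyte subunits stood highest. Itgb2 had a mean of 729.7 ± 21.5 FPKM (SD, n = 3), Itgam 354 ± 7.98 FPKM and Itgal 153 ± 8.76 FPKM, and the ranges of these 3 did not overlap. Itgb1 (97.9 ± 7.63 FPKM), Itgb5 (85.5 ± 5.25 FPKM) and Itgax (79.1 ± 9.21 FPKM) followed, and each of them overlapped its neighbour. The remaining alpha subunits were lower, with Itga5 at 27.1 ± 2.46 FPKM, Itga4 at 25.3 ± 0.58 FPKM, Itga6 at 19.0 ± 2.75 FPKM and Itgav at 15.7 ± 1.98 FPKM. Itga5 overlapped Itga4, and Itga6 overlapped Itgav, whereas Itga4 and Itga6 did not overlap. In stimulated macrophages the order was the same except that Itgax (71.7 ± 5.21 FPKM) and Itgb5 (70.9 ± 3.69 FPKM), which overlapped, changed places. Itga5 and Itga4 no longer overlapped there, nor did Itga6 and Itgav. None of the 17 other integrin subunits in the files reached the level of the lowest member. The highest value of any of them was 9.21 FPKM, for Itgb7 in control replicate 2, against 11.7 FPKM for Itgav in stimulated replicate 1, the lowest of any member.

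**Figure D1:**
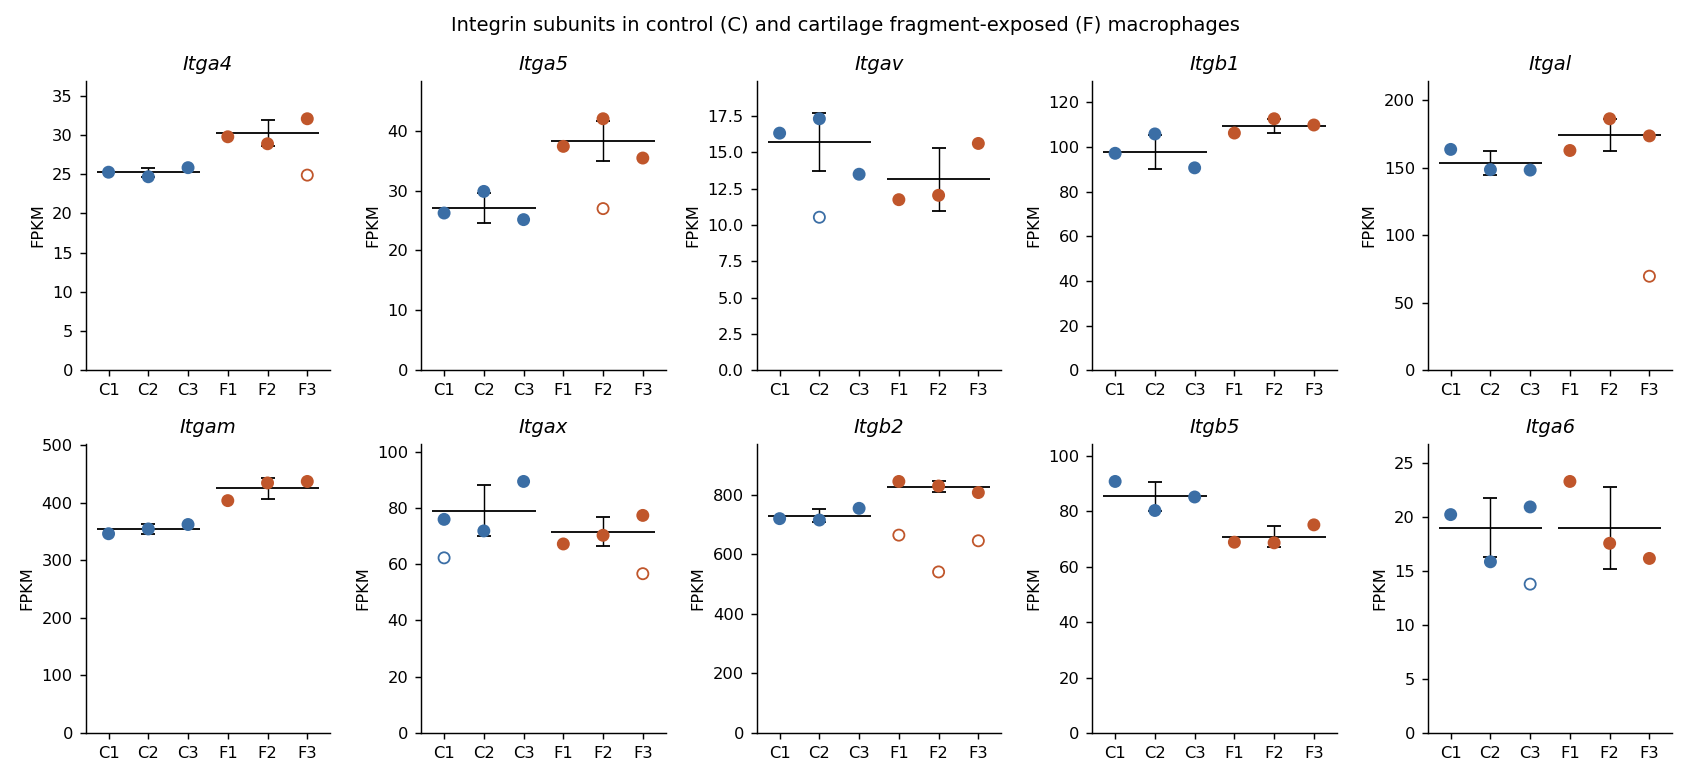
FPKM of each of the 10 integrin subunits in control libraries 1 to 3 (C1 to C3, blue) and libraries of macrophages exposed to cartilage fragments 1 to 3 (F1 to F3, orange), with each axis from 0. Filled points include assembled transcripts, open points show reference transcripts only where these differ, and lines and bars give the mean and SD of the filled points. Itgam lies between 346 and 362 FPKM in controls and between 403.5 and 436.8 FPKM in stimulated cultures, and the open Itgb2 points fall below the controls.

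The question of the comparison was which transcripts differ between stimulated and control macrophages after 24 h. Of the 10 integrin subunits, 6 were higher and 4 lower in stimulated macrophages on the FPKM scale. None passed the threshold of limma on log2(FPKM + 0.1), an adjusted p of 0.05 over 10392 genes, at which 0.375% of all tested genes were called, 32 of them higher and 7 lower. At an unadjusted p under 0.05 there were 4 members, Itga5, Itgam, Itgb2 and Itgb5, beside 9.33% of all genes. On scaled fragments the same fit called 3 of 10 members, Itga5, Itgam and Itgb2, all higher, beside 2.60% of all genes and 5.27% of the 4384 genes whose mean reached 14.4 FPKM, the lowest mean of a member. The groups did not overlap for 6 members on the FPKM scale, with 5 higher (Itga4, Itga5, Itgb1, Itgam and Itgb2) and 1 lower (Itgb5) in stimulated macrophages. The same held for 16.0% of all tested genes (9.06% higher and 6.89% lower), and for 20.0% of those that reached 14.4 FPKM. The median log2 fold change of FPKM was 0.17 over the members and 0.003 over all tested genes.

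Among the fibronectin-binding subunits, Itga5 showed the largest difference of any member. Itga5 (chr15:103344286-103366748, minus strand) encodes the alpha subunit of the classical fibronectin receptor. Its FPKM was 26.2, 29.9 and 25.1 in controls and 37.4, 42.0 and 35.4 in stimulated cultures, so that every stimulated library lay above every control. The log2 fold change was 0.50 ± 0.15 (SE), 1.41-fold, with limma adjusted p = 0.306 on FPKM. On scaled fragments it was 0.44 ± 0.12 with adjusted p = 0.0436, resting on 256 fragments in controls and 332 in stimulated libraries. That call was kept without control replicate 2, where the log2 fold change was 0.52, and was lost without each of the other 5 libraries in turn, where the log2 fold change lay between 0.39 and 0.47. Itga5 is also in the gene list that the study drew from these libraries, so its direction here is not independent of that list. In stimulated replicate 2, 15.0 of the 42.0 FPKM belonged to an assembled transcript of 3164 bases. With reference transcripts only, that library had 27.0 FPKM, inside the control range, and the log2 fold change was 0.28 ± 0.18 (limma adjusted p = 0.797).

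Itga4 (chr2:79255426-79333114, plus strand), whose product binds fibronectin and the vascular adhesion molecule Vcam1, was at 25.3, 24.7 and 25.8 FPKM in controls and 29.8, 28.9 and 32.1 FPKM in stimulated macrophages. The groups did not overlap, and the log2 fold change of 0.26 ± 0.14 did not pass the threshold (limma adjusted p = 0.623, and 0.267 on scaled fragments). Stimulated replicate 3 held 7.18 FPKM of it in an assembled transcript, without which that library was at 24.9 FPKM, among the controls, and the log2 fold change was 0.14 ± 0.14 (limma adjusted p = 0.801). Itgb1 (chr8:128685654-128733579, plus strand), the beta subunit shared by the Itga4, Itga5 and Itga6 receptors, was at 97.1, 105.8 and 90.6 FPKM in controls and 106.2, 112.6 and 109.8 FPKM in stimulated macrophages. The lowest stimulated library lay just above the highest control, and the groups overlapped after scaling to equal totals, by size factors or by quantiles. Its log2 fold change was 0.16 ± 0.097 (limma adjusted p = 0.654), with a 95% interval from -0.06 to 0.39.

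Itgav (chr2:83724397-83806917, plus strand), the alpha subunit of receptors for vitronectin, fibronectin and other matrix proteins with the same tripeptide motif, was at 16.3, 17.3 and 13.5 FPKM in controls and 11.7, 12.0 and 15.6 FPKM in stimulated macrophages. Stimulated replicates 1 and 2 lay below all controls, and replicate 3 lay within their range. The log2 fold change was -0.26 ± 0.20 (limma adjusted p = 0.740), with a 95% interval from -0.72 to 0.20, on 59 to 87 fragments per library. In control replicate 2, 6.78 FPKM came from an assembled transcript, and with reference transcripts only the log2 fold change was -0.02 ± 0.23. Itgb5 (chr16:33829665-33949338, plus strand), which joins Itgav in a vitronectin receptor, was the only member lower in all stimulated libraries than in any control. Its FPKM was 90.8, 80.4 and 85.2 in controls and 68.9, 68.7 and 75.2 in stimulated macrophages, a log2 fold change of -0.27 ± 0.10 that did not pass the threshold (limma adjusted p = 0.486, and 0.178 on scaled fragments). Every fragment of Itgb5 was placed on NM_001145884, the form with the 29 bases shown above, and NM_010580 was listed at 0 in all 6 libraries.

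Among the leukocyte subunits, Itgam was higher in every stimulated library than in any control. Itgam (chr7:128062640-128118491, plus strand) encodes CD11b, which with Itgb2 forms a receptor of phagocytes for cleaved complement and fibrinogen. Its FPKM was 346.0, 354 and 362 in controls and 403.5, 434 and 437 in stimulated macrophages. No library had an assembled transcript of Itgam, the groups did not overlap on any of the 3 bases of summing, and the log2 fold change was 0.26 ± 0.062 (1.20-fold, limma adjusted p = 0.178). On scaled fragments, over 3592 control and 4117 stimulated fragments, the same fold change had an SE of 0.043 and a limma adjusted p of 0.000102. As the fold change was the same, the smaller p came from the smaller SE and from more degrees of freedom. Limma takes part of each from other genes. On FPKM without the trend and robust options of limma, the adjusted p was 0.623. On scaled fragments Itgam was called without any single library, with the log2 fold change between 0.24 and 0.30. It was not called with scaled fragments of reference transcripts only (limma adjusted p = 0.159), a fit that called 0.135% of all genes. Its own log2 fold change there was again 0.262, with an SE of 0.0437, as Itgam had no assembled transcript to leave out.

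**Figure D2:**
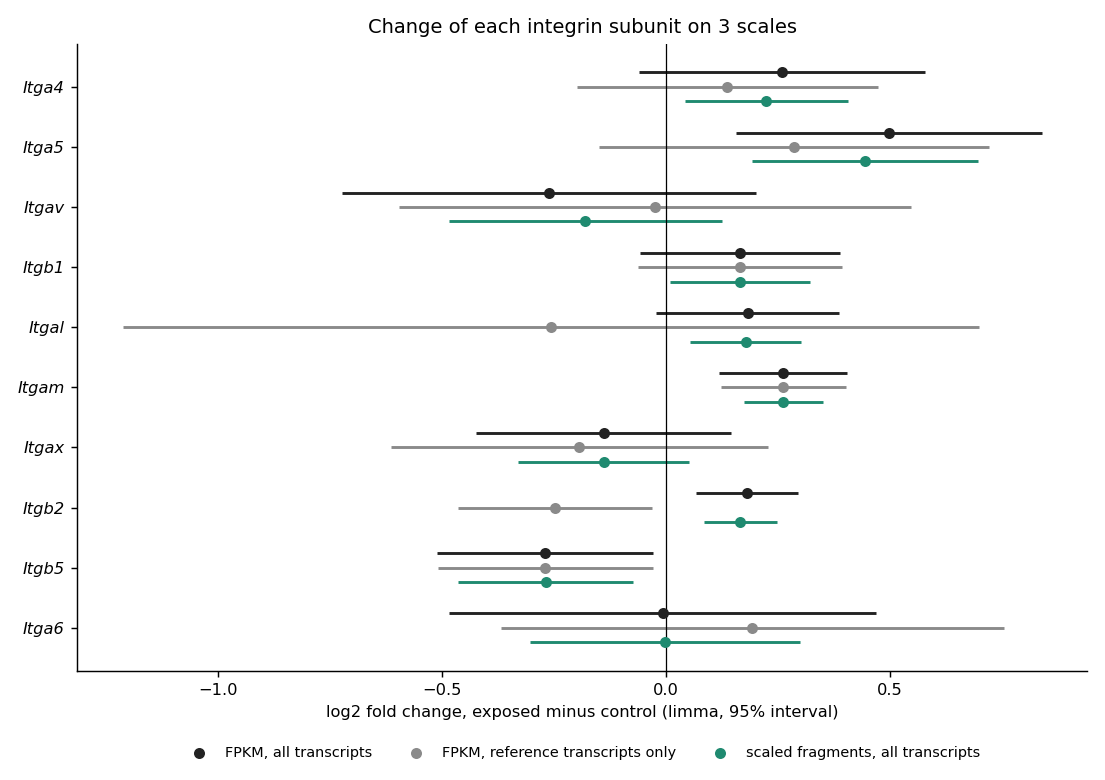
Log2 fold change of each integrin subunit in stimulated against control macrophages with its 95% interval from limma, on FPKM of all transcripts (black), FPKM of reference transcripts only (grey) and scaled fragments of all transcripts (green). Itgam is at 0.26 on all 3, whereas Itgb2 is at 0.18 with and at -0.25 without assembled transcripts.

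Itgb2 (chr10:77530348-77565674, plus strand), the common beta subunit of the leukocyte integrins and the most abundant member, changed direction with the transcripts that were counted. Over all transcripts it was at 719.7, 715 and 754 FPKM in controls and 845, 829 and 807 FPKM in stimulated macrophages, without overlap. The log2 fold change was 0.18 ± 0.049 (limma adjusted p = 0.250), and on scaled fragments 0.17 ± 0.040 with adjusted p = 0.011. The scaled fragment call was kept without control replicate 3 or stimulated replicate 3 and lost without any of the other 4 libraries. On the reference transcript NM_008404 alone, stimulated macrophages had 664, 540.7 and 645 FPKM, all below the controls, and the log2 fold change was -0.25 ± 0.088 (limma adjusted p = 0.698). The difference lay in assembled transcripts, which held 180.3 FPKM in stimulated replicate 1, 111.6 and 177.1 FPKM in replicate 2 and 162.1 FPKM in replicate 3, and none in controls. These transcripts had 2712 to 2829 bases against 2862 in the reference, and all ended at the same base of chromosome 10 as the reference.

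The values also depended on the transcripts counted for Itgal (chr7:127296260-127335137, plus strand), the alpha subunit of the lymphocyte function-associated antigen that binds Icam1. Over all transcripts it was at 163.5, 148.5 and 148.2 FPKM in controls and 162.7, 186.2 and 173.5 FPKM in stimulated macrophages, where replicate 1 lay within the control range. The log2 fold change was 0.18 ± 0.089 (limma adjusted p = 0.581, and 0.145 on scaled fragments). Stimulated replicate 3 held 103.9 FPKM in an assembled transcript of 5147 bases, and its reference transcripts alone gave 69.6 FPKM, which turned the log2 fold change to -0.26 ± 0.38. Itgax (chr7:128129568-128150657, plus strand), which encodes CD11c, was at 76.0, 71.9 and 89.5 FPKM in controls and 67.2, 70.3 and 77.4 FPKM in stimulated macrophages. Its groups overlapped, and the log2 fold change of -0.14 ± 0.12 (limma adjusted p = 0.776) had a 95% interval from -0.42 to 0.14. Control replicate 1 and stimulated replicate 3 held 13.7 and 20.7 FPKM of Itgax in assembled transcripts, and with reference transcripts only they were at 62.3 and 56.7 FPKM and the log2 fold change was -0.19 ± 0.17.

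Itga6 (chr2:71786939-71858427, plus strand), the alpha subunit of laminin receptors, was at 20.2, 15.8 and 20.9 FPKM in controls and 23.3, 17.6 and 16.2 FPKM in stimulated macrophages. Both groups had a mean of 19.0 FPKM, and the log2 fold change was -0.01 ± 0.21 (limma adjusted p = 0.997), with a 95% interval from -0.48 to 0.47. Control replicate 3 held 7.15 FPKM in an assembled transcript, and with reference transcripts only it was at 13.8 FPKM and the log2 fold change was 0.19 ± 0.23. The spread between libraries was the widest of the members, with a coefficient of variation of 14.5% in controls and 19.9% in stimulated macrophages.

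**Figure D3:**
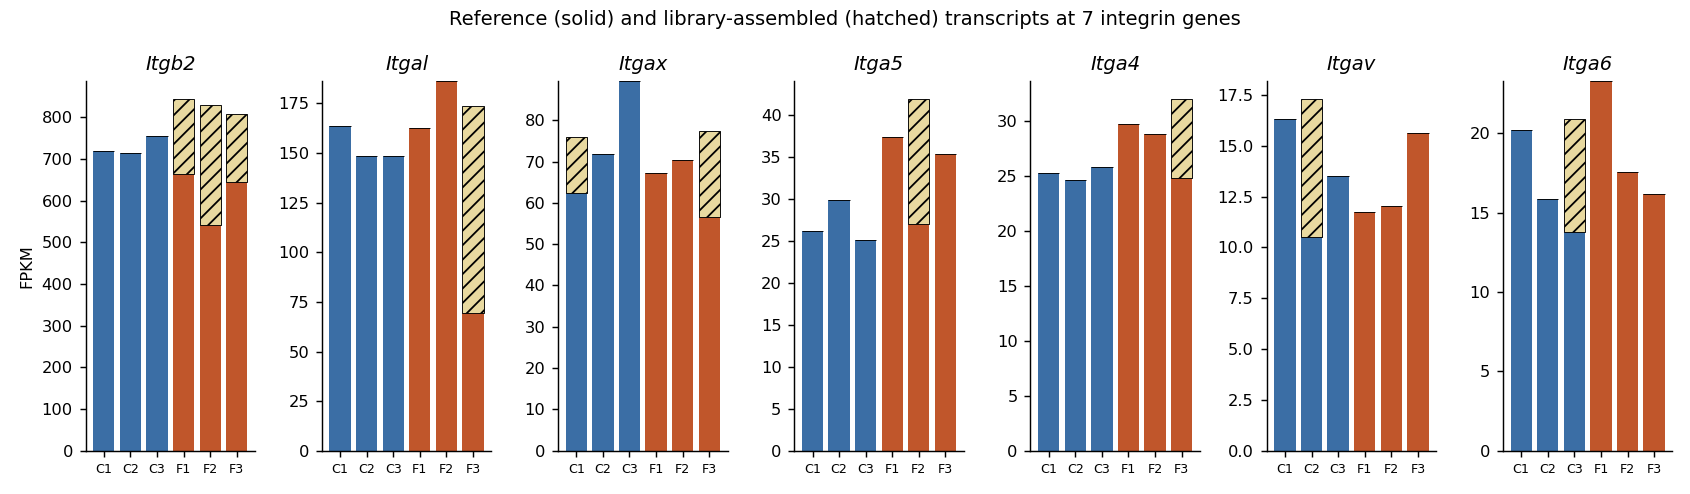
FPKM at the 7 integrin genes with an assembled transcript in at least 1 library, as stacked bars from 0 for control (C1 to C3, blue) and stimulated (F1 to F3, orange) libraries, with reference transcripts solid and assembled transcripts hatched. At Itgb2 all 3 stimulated bars and no control bar have a hatched part, of 162.1 to 288.6 FPKM, and at Itgal the hatched part of F3 is 103.9 FPKM.

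Assembled transcripts therefore bore on 7 members, and unevenly between groups. They occurred in 3 of the member and library pairs in controls and in 7 in stimulated macrophages. Of the summed FPKM of the 10 members, they held 0.866%, 0.434% and 0.443% in controls and 10.3%, 16.9% and 16.5% in stimulated libraries. Itgb2 alone held 180.3, 288.6 and 162.1 FPKM of these in the stimulated libraries. Of the FPKM of all transcripts, assembled ones held 15.8% to 19.96% in controls and 17.23% to 19.79% in stimulated libraries. The members thus stood below that share in controls, and not above it in stimulated libraries. Over all tested genes the share of genes with an assembled transcript was 11.2% to 11.9% in controls and 10.5% to 11.1% in stimulated libraries. Without assembled transcripts, 5 members were higher and 5 lower, 0 of 10 passed the limma threshold beside 0.184% of 10352 genes, and 3 had an unadjusted p under 0.05 beside 6.52% of all genes. The groups were then apart for Itgb1 and Itgam (higher) and Itgb2 and Itgb5 (lower), beside 14.9% of all genes. Itgb1, Itgam and Itgb5 had no assembled transcript in any library, so their values were the same on both bases.

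The division of Itgam, Itgal and Itga6 between splice forms differed from library to library. The Itgam form with the CAG shown above, NM_001082960, took 32.7%, 29.4% and 32.6% of Itgam FPKM in controls and 49.2%, 20.7% and 53.6% in stimulated macrophages. In FPKM it was at 113, 104 and 118 in controls and 198, 89.8 and 234 in stimulated macrophages, while the form without it, NM_008401, was at 233, 250.1 and 244 and at 205, 344 and 203. Stimulated replicate 2 thus lay on the other side of the controls from replicates 1 and 3, although the gene totals of the 3 lay close together. Of the Itgal reference FPKM, the 2 transcripts that GENCODE pairs with the form holding the GTG took 21.1%, 21.2% and 10.8% in controls and 53.1%, 24.5% and 0% in stimulated macrophages. NM_008397, the Itga6 form that includes the exon shown above, took 81.2%, 100% and 27.3% of reference FPKM in controls and 100% in every stimulated library, and the other form, NM_001277970, was at 3.81, 0 and 10.0 FPKM in controls and at 0 in stimulated macrophages. The shares of Itgal and Itga6 leave out assembled transcripts. These held 59.9% of Itgal FPKM in stimulated replicate 3 and 34.2% of Itga6 FPKM in control replicate 3, the libraries with the lowest shares. The divisions are Cufflinks estimates between forms that share most of their sequence, and no test was made on them.

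Among the alpha subunits, the share of the fibronectin-binding ones overlapped between the groups. The 3 fibronectin-binding alpha subunits held 10.1 ± 0.718% of the FPKM of the 7 alpha subunits in controls (SD, n = 3) and 10.6 ± 0.124% in stimulated macrophages. The difference of 0.479 percentage points ranged from 0.131 to 0.848 without single libraries, being lowest without control replicate 3 and highest without control replicate 2. With reference transcripts only, stimulated libraries spanned 8.75% to 11.6% and controls 9.51% to 10.3%. The share of Itgam was 51.4% to 53.5% in controls and 54.9% to 55.5% in stimulated macrophages, and that of Itgax 10.9% to 13.1% and 8.89% to 9.83%, both without overlap over all transcripts. In stimulated macrophages 3 of the 4 fibronectin-binding subunits were higher (median log2 fold change over the 4, 0.21), as were 3 of the 4 leukocyte subunits (median 0.18). With reference transcripts only, 3 of the 4 fibronectin-binding subunits (median 0.15) and 1 of the 4 leukocyte subunits (median -0.22) were higher. Within the fibronectin-binding group the ratio of Itga5 to Itgav FPKM was 1.61, 1.72 and 1.86 in controls and 3.18, 3.49 and 2.27 in stimulated macrophages. With reference transcripts only, control replicate 2 had a ratio of 2.83 and stimulated replicate 2 had 2.24, so that the groups overlapped. The ratio of Itgb1 to Itgb5, both of which can pair with Itgav, was 1.07, 1.32 and 1.06 in controls and 1.54, 1.64 and 1.46 in stimulated macrophages, on both bases. The summed leukocyte alpha subunits stood at 0.804 ± 0.00929 of Itgb2 in controls and 0.812 ± 0.0542 in stimulated macrophages, and at 1.03 ± 0.214 in the latter with reference transcripts only. Itga4, Itga5, Itga6 and Itgav together stood at 0.468, 0.471 and 0.486 of Itgb1 plus Itgb5 in controls. In stimulated macrophages that ratio was 0.584, 0.554 and 0.537. With reference transcripts only it was 0.468, 0.435 and 0.445 in controls and 0.584, 0.472 and 0.498 in stimulated macrophages, again without overlap. The last 2 ratios had been planned. Those of Itga5 to Itgav and of Itgb1 to Itgb5 were chosen after the values had been seen. All are given as a description.

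**Figure D4:**
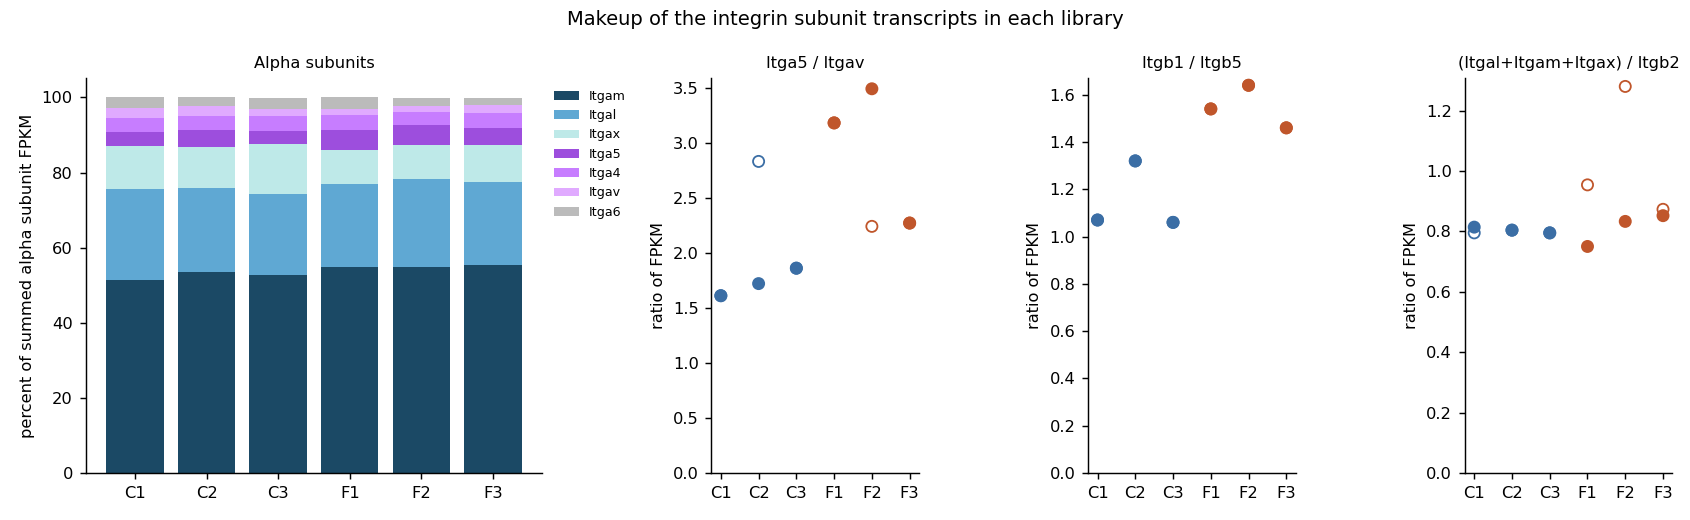
Left, share of each alpha subunit in the summed alpha subunit FPKM of each control (C1 to C3) and stimulated (F1 to F3) library, in percent. Right, ratios of FPKM in the same libraries, with filled points for all transcripts and open points for reference transcripts only. The filled Itga5 to Itgav ratios are 1.61 to 1.86 in controls and 2.27 to 3.49 in stimulated macrophages, and the open points of the groups overlap.

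Of the 17 other integrin subunits, 3 (Itga2, Itgb4 and Itgb6) were listed at 0 in all libraries, 9 lay between 0 and 1.66 FPKM in every library and 5 reached a mean of 1 FPKM. Itgb3, which pairs with Itgav in the vitronectin receptor of osteoclasts, was at 4.20, 4.07 and 2.19 FPKM in controls and 3.13, 3.51 and 3.37 FPKM in stimulated macrophages. Itgad, another partner of Itgb2, was at 1.90, 1.95 and 1.27 FPKM in controls and 1.96, 2.98 and 2.88 FPKM in stimulated macrophages, just without overlap, on 15 and 21 fragments in all. Itgb7, a partner of Itga4, was at 6.84, 9.21 and 8.80 FPKM in controls and 7.07, 7.37 and 4.68 FPKM in stimulated macrophages. Itga1, a collagen receptor subunit, ranged from 0.225 to 3.24 FPKM, and Itga11 from 1.13 to 3.95 FPKM, with overlapping groups. None of these 5 passed the limma threshold on either scale, and their adjusted p on FPKM ranged from 0.703 to 0.998.

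Among 27 activators and adaptors, which link integrin tails to actin or switch the receptors to their binding form, 23 were tested, 14 higher and 9 lower, and none passed on FPKM. On scaled fragments, which called 2.60% of all genes, Cyth1 and Tns3 were lower. Cyth1, a guanine nucleotide exchange factor that binds the tail of Itgb2, was at 55.3, 62.9 and 62.1 FPKM in controls and 43.8, 52.4 and 41.9 FPKM in stimulated macrophages (log2 fold change -0.42 ± 0.12, limma adjusted p = 0.0393). Tns3, a tensin that binds beta subunit tails and is in the study's list, was at 81.5, 80.9 and 83.4 FPKM and at 73.7, 59.5 and 65.9 FPKM (log2 fold change -0.30 ± 0.073, limma adjusted p = 0.0107). On FPKM of reference transcripts only, the log2 fold change was -0.833 ± 0.197 for Cyth1 and -2.665 ± 3.62 for Tns3 (limma adjusted p = 0.397 and 0.824). The largest differences on FPKM were for Parvg, a parvin of leukocytes, at 1.09 ± 0.47 with overlapping groups, and Itgb1bp1, which binds the tail of Itgb1, at -0.81 ± 0.23, neither past the threshold (limma adjusted p = 0.532 and 0.286). The talin gene Tln1 and the kindlin of blood cells, Fermt3, differed by 0.07 ± 0.10 and 0.24 ± 0.11. With reference transcripts only they differed by 0.53 ± 0.324 and -0.107 ± 0.103.

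Of 19 signalling kinases and exchange factors downstream of integrins, 18 were tested, 8 higher and 10 lower, and none passed on FPKM. On scaled fragments, which called 2.60% of all genes, the Src family kinase Fgr, which is in the study's list, rose. Fgr was at 31.2, 31.3 and 33.4 FPKM in controls and 54.9, 50.9 and 43.8 FPKM in stimulated macrophages (log2 fold change on scaled fragments 0.64 ± 0.13, limma adjusted p = 0.00192). On FPKM of reference transcripts only it was 1.038 ± 0.394 (limma adjusted p = 0.724). The largest fall on FPKM was that of the exchange factor Vav2, -0.54 ± 0.35, with overlapping groups. With reference transcripts only its log2 fold change was 2.103 ± 1.79.

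Of 23 ligands and partners, a list drawn up with earlier results of these data known, 17 were tested, 12 higher and 5 lower. On scaled fragments 4 were called higher and 1 lower, beside 2.60% of all genes. On FPKM 1 passed, beside 0.375% of all genes. That was C3, the complement component whose cleaved form is bound by the Itgam and Itgax receptors, at 40.3, 42.0 and 31.1 FPKM in controls and 102, 105 and 80.2 FPKM in stimulated macrophages (log2 fold change 1.34 ± 0.16, limma adjusted p = 0.0185). With reference transcripts only C3 had the same log2 fold change, 1.34 ± 0.175, and did not pass (limma adjusted p = 0.106). On scaled fragments Icam1, the ligand of the leukocyte integrins, rose from 40.7, 41.8 and 36.7 FPKM to 110.0, 63.0 and 60.1 FPKM (0.70 ± 0.13, limma adjusted p = 0.000727). Its log2 fold change of FPKM was 0.912 ± 0.229 over all transcripts (limma adjusted p = 0.205). With reference transcripts only it was 0.396 ± 0.225 (limma adjusted p = 0.797). Tgfbi, a matrix protein bound by integrins, rose from 86.2, 83.3 and 74.7 FPKM to 163, 127 and 127 FPKM (0.77 ± 0.10 on scaled fragments, limma adjusted p = 2.36e-06). Spp1, which encodes osteopontin, a ligand of Itgav and Itga4 receptors, rose by less, from between 629 and 649 FPKM to between 717 and 766 FPKM (0.21 ± 0.056 on scaled fragments, limma adjusted p = 0.0356). Mfge8, which bridges apoptotic cells to Itgav receptors, fell from 467, 496 and 531 FPKM to 367, 389 and 408 FPKM (-0.38 ± 0.060 on scaled fragments, limma adjusted p = 6.78e-05). On FPKM, Tgfbi, Spp1 and Mfge8 did not pass (limma adjusted p = 0.0668, 0.195 and 0.119). With FPKM of reference transcripts only their limma adjusted p was 0.227, 0.35 and 0.465. Except for Spp1, the ligands and partners called on either scale are in the study's list. The fibronectin gene Fn1 itself was at 55.0, 63.9 and 69.4 FPKM in controls and 65.8, 65.0 and 82.5 FPKM in stimulated macrophages, with overlapping groups, and the vitronectin gene Vtn was listed at 0 in all libraries.

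**Figure D5:**
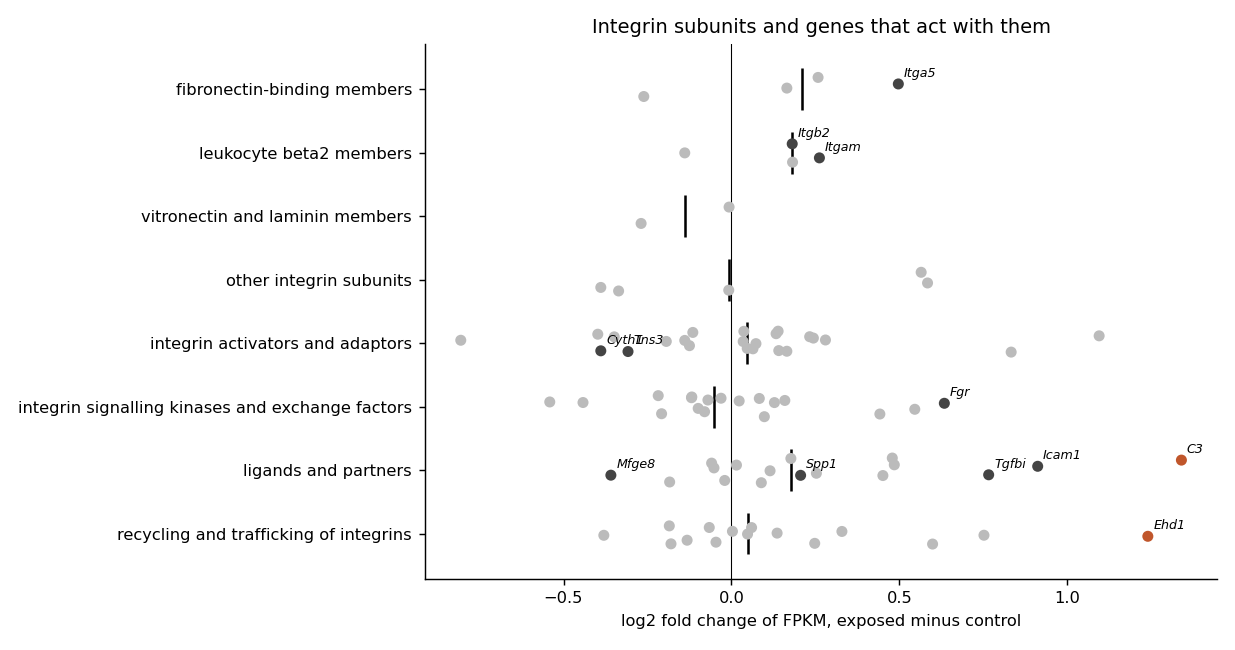
Log2 fold change of FPKM, stimulated against control macrophages, of every tested gene of the integrin subunits and of the lists of genes that act with them, 1 point per gene, with the median of each list as a bar. Orange points passed the limma threshold on FPKM (C3 and Ehd1), dark points on scaled fragments only and pale points on neither; the vertical scatter has no meaning.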

How the data were processed

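RNA from 3 control and 3 stimulated BMM cultures was sequenced as paired-end 100-bp reads. Per the labels and Methods, the authors used TopHat, Bowtie and Cufflinks on mm10 (versions not given in the sources used here). The deposited FPKM are Cufflinks values per transcript, and the deposited coverage signal is the depth Cufflinks lists beside each. The Methods name TMM and a removal of low FPKM, while values of 0 remain in the files. Starts had 1 added.

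FPKM were summed per symbol, with unnamed assembled transcripts added to the symbol whose Cufflinks gene they share (symbols whose transcripts are all under 200 bases were not used for this). The alternative sums named transcripts only. This reading of the plan was settled after both sums had been seen. Fragments were coverage × (length - 220) / 100, the offset chosen so that low values came out whole: 95.62% to 96.58% of values up to 8 lay within 0.1 of a whole number. Scaled fragments are these numbers, after 0.5 was added, over the library total, on the log2 scale.

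The comparison used limma 3.58.1 under R 4.3.3 (lmFit, eBayes with trend and robust, two-sided, Benjamini-Hochberg adjustment) on log2(FPKM + 0.1), a scale that understates changes of low genes. Genes averaging at least 1 FPKM were tested. Between libraries, chi-square per gene was 1.36 to 1.59 within and 2.07 to 2.62 between groups, so no 2 libraries were duplicates. Replicate numbers did not pair the libraries. Python 3.11.15 made tables and figures.

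The members and lists were chosen with earlier results of these data known. Named are all 10 members, other subunits of at least 1 FPKM, and from each list the genes past the threshold on either scale and the largest rise and fall on FPKM. Tln1, Fermt3, Fn1 and Vtn were picked later, with their values in view. The alternatives vary pseudocount, filter, scaling, moderation, weights, block, transcripts, status and libraries. Protein sequences and qRT-PCR were not used here. A gene of the signalling list is not reported here.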

Additional observations from a re-analysis of the deposited data

How the results depend on the processing

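Over 26 alternatives, each run for the 10 subunits, the log2 fold change of 7 subunits kept its sign throughout. The exceptions, with the cause not tested unless stated, were Itgb2 at -0.248 and Itgal at -0.257 with reference transcripts only, on FPKM and on scaled fragments, where the assembled transcripts are left out by construction, and Itga6, close to 0, at 0.193 on FPKM and 0.203 on scaled fragments of reference transcripts only, and between -0.162 and 0.105 without single libraries (0.043 without control replicate 1, 0.068 without control replicate 3, 0.041 and 0.1 without stimulated replicates 2 and 3 on FPKM, and 0.047, 0.071, 0.046 and 0.105 on scaled fragments).

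No integrin subunit passed the threshold on FPKM under any alternative, single libraries left out included (0 to 0). On scaled fragments 3 passed, and 1 to 2 of them without single libraries. On scaled fragments of reference transcripts only 0 passed. Itga5 (limma adjusted p = 0.795) and Itgb2 (0.673, with the opposite sign) were no longer called there, nor was Itgam (0.159). The values of Itgam itself hardly moved, with a log2 fold change of 0.262 on each and an SE of 0.0432 and 0.0437. Its adjusted p thus changed with the fit over all genes and not with the Itgam transcripts counted. Scaled fragments of reference transcripts only, and both sets of scaled fragments without single libraries, were added after the data had been seen. Of all tested genes, 39 passed on FPKM and 270 on scaled fragments (192, 176 and 230 without control replicates 1, 2 and 3, and 159, 163 and 228 without stimulated replicates 1, 2 and 3). There were 18 without trend and robust, 19 with reference transcripts only and 14 on scaled fragments of these. Leaving out single libraries on FPKM gave 9 to 30, with 9 without stimulated replicate 1. With the replicate block 18 genes passed, 17 higher and 1 lower, and 0 subunits. Deviations of libraries with the same number correlated at -0.00844, -0.00908 and 0.00812, so the block rests on shared numbers only. Subunits without overlap between groups were 6 to 8 without single libraries, beside 25.6% to 26.6% of all genes. With reference transcripts only they were 4, beside 14.9% of all genes. Under equal totals, size factors or quantiles they were 5, and the share of all genes is not given for these, so that count cannot be weighed. At 65 to 102 fragments per library, the interval of Itga6 held both a rise and a fall of the size measured for Itgam.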

Other observations

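Genes that recycle and sort integrins between the cell surface and endosomes were also measured. Of 16, 15 were tested, 9 higher and 6 lower in stimulated macrophages, with a median log2 fold change of 0.05 on FPKM beside 0.003 over all genes. Ehd1, which drives vesicles from recycling endosomes back to the surface and is in the study's list, was at 18.8, 20.2 and 17.8 FPKM in controls and 41.9, 54.5 and 39.3 FPKM in stimulated macrophages, and rose on FPKM (log2 fold change 1.24 ± 0.17, limma adjusted p = 0.0286) and on scaled fragments (1.24 ± 0.16, limma adjusted p = 9.37e-07). These scales called 0.375% and 2.60% of all genes. With reference transcripts only Ehd1 had the same log2 fold change, 1.24 ± 0.171, and did not pass (limma adjusted p = 0.12). Every stimulated library was above every control. The lowest fold change was that of Numb, an endocytic adaptor for integrins, at 19.7, 20.4 and 24.0 FPKM in controls and 17.1, 18.2 and 14.0 FPKM in stimulated macrophages (-0.38 ± 0.18, limma adjusted p = 0.577). The groups did not overlap, and the difference did not pass the threshold on either scale.

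Of the 5 fibroblast markers, Col1a1 and Col1a2 were lower in every stimulated library than in any control. Col1a1 was at 87.4, 75.2 and 74.4 FPKM in controls and 50.7, 43.6 and 49.2 FPKM in stimulated macrophages (log2 fold change -0.72 ± 0.12 on FPKM, limma adjusted p = 0.0810, and 1.81e-06 on scaled fragments). Col1a2 was at 71.8, 76.0 and 86.4 FPKM and at 56.7, 56.4 and 62.6 FPKM (-0.41 ± 0.12, limma adjusted p = 0.286, and 0.00314 on scaled fragments). Col3a1 (3.14 FPKM in controls and 1.73 FPKM in stimulated macrophages, as means), Dcn (2.79 and 3.52 FPKM) and Pdgfra (0.281 and 0.365 FPKM) overlapped between groups. Type I collagen is bound by some integrins of the other subunits, among them those of Itga1 and Itga11, which were below 4 FPKM in every library. Whether the fibroblast markers have a part in the values of Itgav, Itgb1 or Itgb5, which fibroblasts also express, was not tested.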
